A study of Rattus norvegicus with 18 samples.

Results

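The genes described here are 50 genes of DNA replication and mitosis with textbook roles in the cell cycle. They were chosen by symbol with earlier results of these data known, so counts over them are descriptions. The set was split into 30 genes of the G1/S transition and DNA replication and 20 genes of the G2/M transition and mitosis. Of the 30735 genes of the series, 48 were members of this set, since no gene carried the symbol E2f1 or Ccnb2. Their expression was thus not analysed, whereas the promoter window of Ccnb2 was. The filter on low counts kept 47 of these members, 28 of the G1/S set and 19 of the G2/M set, among 18444 genes tested, and it removed E2f8. The libraries came from the cerebral cortex of adult Sprague Dawley rats without genetic modification. The sham group had a sham operation, and the SAH 1d and SAH 7d groups had subarachnoid hemorrhage (SAH, bleeding into the space around the brain) made by perforating an artery from inside, with tissue taken 1 and 7 days later. Each group had 6 libraries. The sex of the rats was not given in the sources used here, the tissue was a piece of whole cortex in which many cell types are mixed, and 1 sham group serves both times after SAH.

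A cell that leaves rest first makes D-type cyclins, which release E2F transcription factors from the retinoblastoma protein. E2F factors then turn on the genes that load the MCM helicase onto origins of replication, supply nucleotides and copy DNA. Genes of mitosis are kept off in resting and G1 cells by the DREAM complex and are turned on later, around G2, by B-MYB-MuvB and FOXM1, through CHR elements that often lie near CCAAT boxes bound by NF-Y. In the adult cortex most neurons are postmitotic, and glial precursors, microglia, endothelial cells and immune cells from the blood are among the cells that can divide. Cells that enter the cycle need not complete it, so the G1/S and the G2/M genes were compared group by group. In a bulk sample, more cells that carry a transcript cannot be told apart from more of the transcript in each cell.

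Total counts ranged from 27270026 to 38271014 per library, and levels are given in counts per 1000000 counts (CPM), normalized between libraries. The precision was not equal for both sets, since the median member had 4.20 CPM in the sham group for G1/S and 2.05 CPM for G2/M, and the median standard error of the log2 fold change between SAH 1d and sham was 0.18 and 0.29. Markers of neurons, astrocytes and oligodendrocytes were detected in every library. SAH 7d-5 stood apart from the other SAH 7d libraries in its marker genes: the summed level of monocyte and macrophage markers was 8815 CPM against 127 to 322 CPM, that of microglia 2599 against 349 to 1104 CPM, that of meningeal fibroblasts 4188 against 269 to 433 CPM, that of T and B cells 320.2 against 8.28 to 36.3 CPM, and that of neurons 2180 against 6071 to 8004 CPM. Sham-1 had the lowest neuron sum of its group (5453 against 7297 to 8885 CPM) and the highest microglia sum (500.0 against 284 to 371 CPM). Its sums were also the highest of the sham group for astrocytes (4828 against 2948 to 3695 CPM) and mural cells (210.2 against 121 to 143 CPM). The same held for oligodendrocytes, their precursors, endothelial cells, neural progenitors, and T and B cells. It did not hold for monocytes and macrophages, neutrophils, meningeal fibroblasts, red cells or choroid plexus. SAH 1d-3 had more monocyte and macrophage markers than the other SAH 1d libraries (620.2 against 121 to 155 CPM). In the SAH 1d group all 7 neuron markers were lower than in the sham group at an adjusted p under 0.05, 3 of 6 monocyte and macrophage, 2 of 3 neutrophil, 2 of 6 endothelial, 1 of 6 meningeal fibroblast and 1 of 3 T and B cell markers were higher, and 1 of 7 microglia markers was lower. No marker of oligodendrocytes, their precursors, mural cells, red cells or choroid plexus passed, and among the other lists 1 astrocyte marker was higher and 2 were lower, and 1 marker of neural progenitors went each way. Of all genes tested 14.9% were higher and 10.5% lower, so 1 marker in a list of 6 or 7 lies near these shares. Results that rest on SAH 7d-5 or sham-1 are given with and without that library, and the part of any cell type in them was not tested.

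The promoters of the members were read from RefSeq windows on the GRCr8 build, each running from 250 bases before to 50 bases after a transcription start, and 39 of the 50 members had a window. The E2F site was searched as TTTGGCGC, TTTCCCGC, TTTCGCGC or TTTGCCGC, the CHR element as TTTGAA and the NF-Y box as CCAAT, on both strands, and the E2F spellings can overlap each other. An E2F site was in 13 of 25 windows of G1/S members (23 genes, with 3 windows for Uhrf1), in 1 of 16 windows of G2/M members, and in 2.14% of all 33469 windows. A CHR element was in 1 of 25 windows of G1/S members, in 10 of 16 of G2/M members, and in 18.3% of all windows. A CCAAT box was in 17 of 25 and in 13 of 16 windows, against 37.5% of all. A match describes letters and is no evidence of binding.

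**Figure D1:**
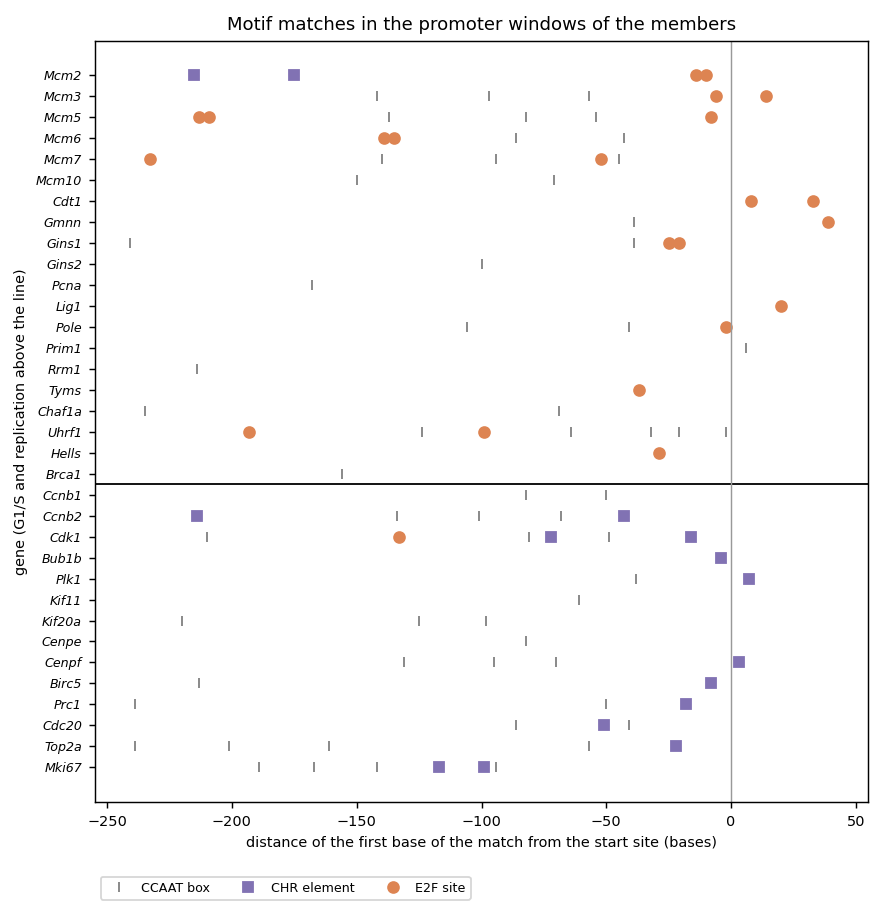
Position of each motif match in the promoter windows of the members, in bases from the transcription start (x axis), for each gene with a match (y axis), with matches of all windows of Uhrf1 on 1 line. E2F sites (circles) lie in 13 genes above the line that parts the G1/S from the G2/M members and CHR elements (squares) in 10 genes below it, and Mcm2 and Cdk1 are the genes with matches to both.

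Windows of 6 members are printed because they show both kinds of promoter for genes whose values are given below, and these 6 were picked after their values were seen. Each runs 5′ to 3′ in the direction of the gene, from 220 bases before to 30 bases after the start, with E2F sites in capitals for Mcm5, Mcm3 and Mcm2, CHR elements in capitals for Top2a and Mki67, and both in capitals for Cdk1. Mcm5 is at chr19:13488593-13488842 (plus strand), Mcm3 at chr9:30733717-30733966 (minus), Mcm2 at chr4:122918065-122918314 (minus), Cdk1 at chr20:19265073-19265322 (plus), Top2a at chr10:84473064-84473313 (minus) and Mki67 at chr1:199952564-199952813 (minus).
Mcm5: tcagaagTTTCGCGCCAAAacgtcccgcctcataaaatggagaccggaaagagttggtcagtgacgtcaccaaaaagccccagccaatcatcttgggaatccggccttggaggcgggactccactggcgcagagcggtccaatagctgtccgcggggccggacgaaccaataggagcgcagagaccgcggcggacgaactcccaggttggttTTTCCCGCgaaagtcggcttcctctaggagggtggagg
Mcm3: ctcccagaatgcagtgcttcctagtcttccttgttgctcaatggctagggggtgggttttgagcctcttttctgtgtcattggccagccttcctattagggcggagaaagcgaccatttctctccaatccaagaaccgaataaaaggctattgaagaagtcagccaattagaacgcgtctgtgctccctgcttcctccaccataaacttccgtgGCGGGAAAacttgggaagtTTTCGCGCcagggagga
Mcm2: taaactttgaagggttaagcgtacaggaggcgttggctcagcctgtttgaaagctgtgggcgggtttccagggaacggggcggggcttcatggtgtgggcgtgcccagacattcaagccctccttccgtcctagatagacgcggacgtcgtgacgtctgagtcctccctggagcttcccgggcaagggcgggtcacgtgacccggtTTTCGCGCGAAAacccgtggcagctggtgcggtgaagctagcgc
Cdk1: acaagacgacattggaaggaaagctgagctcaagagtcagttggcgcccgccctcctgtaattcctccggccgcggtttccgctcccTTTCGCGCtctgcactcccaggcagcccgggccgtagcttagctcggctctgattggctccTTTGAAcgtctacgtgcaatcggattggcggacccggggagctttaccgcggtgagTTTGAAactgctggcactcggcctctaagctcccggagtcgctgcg
Top2a: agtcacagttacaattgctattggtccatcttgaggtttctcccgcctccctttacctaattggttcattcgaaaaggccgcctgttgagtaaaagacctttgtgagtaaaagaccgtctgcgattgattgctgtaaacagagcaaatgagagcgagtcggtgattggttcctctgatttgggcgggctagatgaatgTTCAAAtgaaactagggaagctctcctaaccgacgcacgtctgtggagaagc
Mki67: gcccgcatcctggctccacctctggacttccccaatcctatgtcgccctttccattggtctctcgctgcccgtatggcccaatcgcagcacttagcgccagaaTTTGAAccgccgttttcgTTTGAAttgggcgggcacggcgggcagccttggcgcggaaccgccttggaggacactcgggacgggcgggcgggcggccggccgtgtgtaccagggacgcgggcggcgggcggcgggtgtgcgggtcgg

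At 1 day after SAH, replication genes rose in the cortex, among them all 12 tested genes that license origins or form the helicase. Compared with the sham group, 20 of the 28 G1/S members rose and none fell in the SAH 1d group at an adjusted p under 0.05, against 14.9% of all genes tested that rose and 10.5% that fell. Of the 19 G2/M members 5 rose and none fell. With a fold change of at least 2 as well, 13 G1/S and 2 G2/M members rose, against 5.57% of all genes. The median log2 fold change was 0.85 for G1/S and 0.64 for G2/M members, and 0.01 for all genes. Without sham-1 the medians were 1.01 for G1/S and 0.99 for G2/M members, so the gap between the sets rested on that library. Every SAH 1d library was above every sham library for 11 G1/S members and for none of the G2/M members, against 7.89% of all genes. Ccnd1 of the G1/S set and Cdk1, Mki67 and Top2a of the G2/M set overlapped through sham-1 alone. This separation was not counted without sham-1. The calls depended on which libraries shared the estimate of the spread. With all 18 libraries in 1 fit 10 G1/S and no G2/M members rose, against 8.18% of all genes. Mcm7, Mcm10, Gmnn, Gins1 and Gins2 were among those that no longer passed. In this fit 18 G1/S and 0 G2/M members had an unadjusted p under 0.05 by edgeR, against 5921 of 18444 genes.

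**Figure D2:**
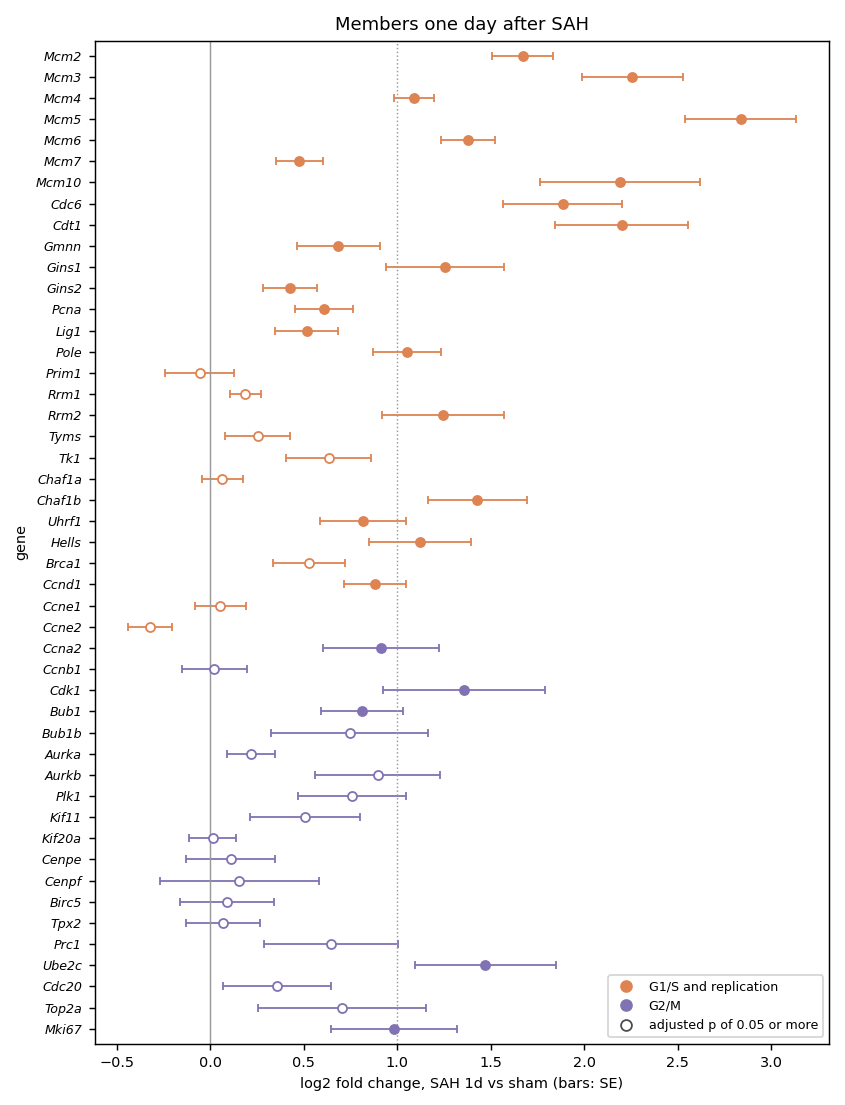
Log2 fold change of each member in the SAH 1d group over the sham group (x axis, bars show the SE) by gene (y axis, in the order of the roles in the text), with filled points for an adjusted p under 0.05 and a dotted line at a log2 fold change of 1. The 12 licensing and helicase genes at the top are all filled, whereas the spindle genes from Kif11 to Prc1 are open and lie at 0.01 to 0.64.

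The licensing and helicase group held 12 tested members and all 12 rose, with a median log2 fold change of 1.52. Mcm5, a subunit of the helicase ring, had 1.16 to 3.10 CPM (median 1.23) in the sham group and 6.87 to 15.7 CPM (median 11.8) in the SAH 1d group. Mcm3 had 1.24 to 4.10 CPM (median 1.68) and 6.91 to 12.5 CPM (median 9.75), and Mcm2 had 3.41 to 6.53 CPM (median 4.18) and 11.1 to 16.3 CPM (median 14.6). None of these subunits overlapped between the groups, and sham-1 was the highest sham library for each. Their log2 fold changes were 2.84 (SE 0.30, adjusted p = 6.23e-05), 2.26 (SE 0.27, adjusted p = 0.000154) and 1.67 (SE 0.16, adjusted p = 3.81e-05).

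The other subunits of the ring rose by less. Mcm6 had 5.41 to 7.71 CPM (median 7.24) in the sham group and 12.8 to 23.8 CPM (median 17.8) in the SAH 1d group, and Mcm4 had 15.9 to 19.6 CPM (median 18.4) and 31.3 to 46.1 CPM (median 39.0), both without overlap. Mcm7 had 14.6 to 19.3 CPM (median 16.3) and 16.7 to 27.6 CPM (median 23.6), so that SAH 1d-4 lay among the sham libraries. The log2 fold changes were 1.38 (SE 0.14, adjusted p = 6.23e-05), 1.09 (SE 0.11, adjusted p = 3.91e-05) and 0.47 (SE 0.13, adjusted p = 0.0158). The 6 subunits form the ring in equal numbers, and their log2 fold changes ranged from 0.47 for Mcm7 to 2.84 for Mcm5. Levels between genes are compared per length: in FPKM, the licensing and helicase group ranged in the sham group from a mean of 0.0680 for Mcm10 to 6.19 for Mcm7.

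The loading factors rose as well. Cdt1, which brings the helicase to the origin, had 0.276 to 1.70 CPM (median 0.926) in the sham group and 2.83 to 5.33 CPM (median 4.30) in the SAH 1d group, a log2 fold change of 2.20 (SE 0.35, adjusted p = 0.00115). Cdc6, its partner in loading, had 0.154 to 0.60 CPM and 1.11 to 1.93 CPM, a log2 fold change of 1.88 (SE 0.32, adjusted p = 0.00156). Mcm10, which acts when the helicase starts to move, had 0.152 to 0.999 CPM and 1.19 to 3.02 CPM, a log2 fold change of 2.19 (SE 0.43, adjusted p = 0.00348). The groups did not overlap for any of these genes. Gmnn, which encodes geminin, the inhibitor of CDT1, rose by less, with a log2 fold change of 0.68 (SE 0.22, adjusted p = 0.0381), and its groups overlapped. Gins1 and Gins2, parts of the GINS complex of the active helicase, had log2 fold changes of 1.25 (SE 0.32, adjusted p = 0.0125) and 0.42 (SE 0.15, adjusted p = 0.048). The calls of Gmnn and Gins2 were each lost in 13 of 23 alternative settings, whereas those of Mcm2, Mcm3, Mcm4, Mcm5 and Mcm6 held in all 23.

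Of the 8 members for DNA synthesis and nucleotide supply 4 rose. Pcna, the sliding clamp of the DNA polymerases, had 42.9 to 56.1 CPM (median 46.3) in the sham group and 50.3 to 110.5 CPM (median 68.1) in the SAH 1d group, with SAH 1d-3 highest. Rrm2, the regulated subunit of ribonucleotide reductase, had 0.397 to 1.13 CPM (median 0.661) and 0.943 to 2.55 CPM (median 1.65). The groups overlapped for both, and the log2 fold changes were 0.61 (SE 0.16, adjusted p = 0.0135) and 1.24 (SE 0.33, adjusted p = 0.0154). Pole, the catalytic subunit of the leading strand polymerase, had a log2 fold change of 1.05 (SE 0.18, adjusted p = 0.00171), with 1.32 to 2.35 CPM and 2.99 to 5.07 CPM and no overlap. Lig1, which joins Okazaki fragments, had a log2 fold change of 0.51 (SE 0.17, adjusted p = 0.039). The 4 other genes, of nucleotide and primer synthesis, did not pass: Tk1 (thymidine kinase) at 0.63, Tyms (thymidylate synthase) at 0.25, Rrm1 (the large reductase subunit) at 0.19 and Prim1 (primase) at -0.06, with adjusted p = 0.0561, 0.303, 0.112 and 0.844.

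Of the 5 members of chromatin assembly, DNA methylation and repair 3 rose. These were Chaf1b, a subunit of the histone chaperone CAF-1 (log2 fold change 1.43, SE 0.27, adjusted p = 0.00263), Hells, a chromatin remodeler (1.12, SE 0.27, adjusted p = 0.0102), and Uhrf1, which guides maintenance methylation to new DNA (0.82, SE 0.23, adjusted p = 0.0202). Chaf1b had 0.568 to 1.70 CPM in the sham group and 1.86 to 4.16 CPM in the SAH 1d group, and Hells had 0.606 to 1.00 CPM and 1.15 to 2.79 CPM, both without overlap. Chaf1a, the large CAF-1 subunit, was at 0.06 (adjusted p = 0.705), and Brca1, of homologous recombination, was at 0.53 (adjusted p = 0.0593).

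Among the G1/S cyclins 1 of 3 rose. Ccnd1, the D-type cyclin that starts G1, had 22.0 to 45.2 CPM (median 25.2) in the sham group and 39.8 to 60.1 CPM (median 53.4) in the SAH 1d group. Only sham-1 reached the range of the SAH 1d group. The log2 fold change was 0.88 (SE 0.17, adjusted p = 0.0028). The E-type cyclins Ccne1 and Ccne2, partners of CDK2 at the entry to S phase, were at 0.05 (adjusted p = 0.802) and -0.32 (adjusted p = 0.0618). E2f8, an atypical repressor of the E2F family, was too low to be tested, with 0 to 0.30 CPM in the sham group, 0 to 0.573 CPM in the SAH 1d group and 2.48 CPM in SAH 7d-5.

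Fewer genes of mitosis than of replication passed at 1 day. All 19 tested G2/M members had a positive log2 fold change, of 0.01 to 1.47, as did 26 of 28 G1/S members and 9394 of 18444 genes. Of the G2/M members 5 rose at an adjusted p under 0.05. The 5 that rose were Ube2c, the ubiquitin-conjugating enzyme of the anaphase promoting complex (log2 fold change 1.47, SE 0.38, adjusted p = 0.0137), Cdk1, the kinase that drives entry into mitosis (1.36, SE 0.43, adjusted p = 0.0351), Mki67, which encodes the proliferation marker Ki-67 (0.98, SE 0.34, adjusted p = 0.047), Ccna2, the cyclin of S phase and G2 (0.91, SE 0.31, adjusted p = 0.046), and Bub1, a kinase of the spindle checkpoint (0.81, SE 0.22, adjusted p = 0.0166). Cdk1 had 0.364 to 2.50 CPM (median 0.688) in the sham group and 1.75 to 4.37 CPM (median 2.07) in the SAH 1d group. Mki67 had 1.59 to 5.20 CPM (median 1.88) and 3.04 to 8.45 CPM (median 4.06). For both genes sham-1 was the only sham library within the range of the SAH 1d group, and SAH 1d-1 was the highest SAH 1d library.

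Ccnb1, the cyclin that pairs with CDK1 in mitosis, had 2.47 to 4.11 CPM (median 3.52) in the sham group and 2.66 to 4.5 CPM (median 3.34) in the SAH 1d group, a log2 fold change of 0.02 (SE 0.17, adjusted p = 0.941). Top2a, the topoisomerase that untangles chromosomes, had 1.03 to 9.16 CPM (median 2.27) and 3.51 to 9.32 CPM (median 4.58), a log2 fold change of 0.70 (SE 0.45, adjusted p = 0.267). The groups overlapped for both genes, for Top2a through sham-1 alone. None of the 7 spindle, kinetochore and midzone members (Kif11, Kif20a, Cenpe, Cenpf, Birc5, Tpx2 and Prc1) passed, with log2 fold changes of 0.01 to 0.64. By edgeR 0 of 7 had an unadjusted p under 0.05, against 7148 of 18444 genes. The kinases Aurkb, Plk1 and Aurka and the checkpoint gene Bub1b were at 0.89, 0.76, 0.22 and 0.74 with adjusted p = 0.0649, 0.0717, 0.229 and 0.21, and Cdc20, the mitotic activator of the anaphase promoting complex, was at 0.35 (adjusted p = 0.388).

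The count of G2/M members depended on sham-1. This library was the highest sham library for 15 of 19 G2/M and 17 of 28 G1/S members, against 26.6% of all genes, and its Top2a level of 9.16 CPM compared with 1.03 to 2.58 CPM in the other sham libraries. Without sham-1, 11 G2/M members and 20 G1/S members were higher in the SAH 1d group, against 15.3% of all genes. The median log2 fold changes were then 1.01 for G1/S and 0.99 for G2/M members, against 0.85 and 0.64 with sham-1. The G2/M members added were Aurkb, Bub1b, Kif11, Plk1, Prc1 and Top2a. When any of the other sham libraries was left out in turn, or SAH 1d-1 or SAH 1d-2, 2 G2/M members passed, Bub1 and Ube2c, while 17 to 18 G1/S members passed, against 11.4% to 13.4% of all genes. Without SAH 1d-3 the counts were 20 G1/S and 7 G2/M members, against 15.4% of all genes. No test of a difference between the 2 sets was made, and the lower counts and larger standard errors of the G2/M members stand beside their lower number of calls.

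**Figure D3:**
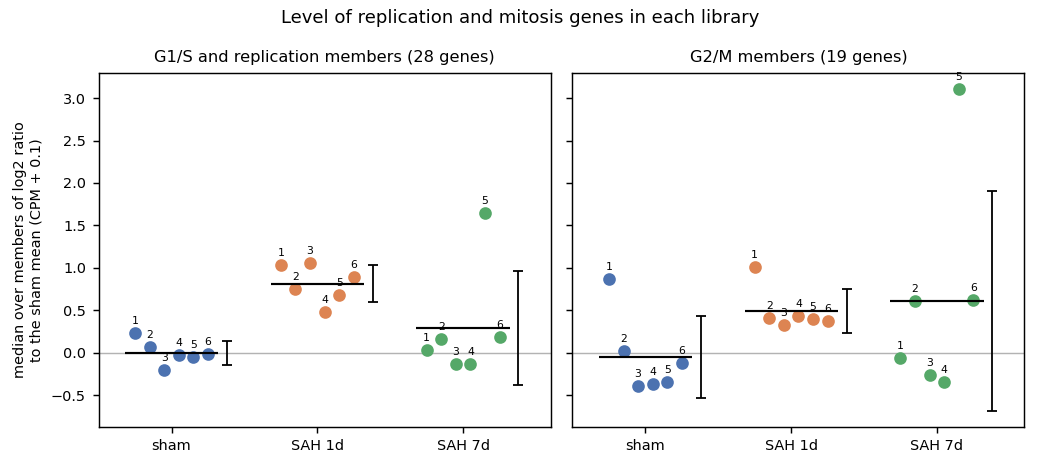
Level of the G1/S and the G2/M members in each library, as the median over the members of the log2 ratio to the sham mean (y axis, with 0.1 CPM added), by group (x axis). Points are libraries with their numbers, horizontal lines the means and bars the SD of 6 libraries, and SAH 7d-5 is highest in both panels at 1.64 and 3.10, whereas the SAH 1d libraries lie at 0.49 to 1.05 and 0.32 to 1.01.

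A level for each set in each library was taken as the median over its members of the log2 ratio to the sham mean. This mean includes sham-1, whose high values raise the reference more for the G2/M than for the G1/S members. The G2/M levels of the other libraries are lowered by this, and levels against a mean without sham-1 were not computed. For the G1/S members the level was -0.20 to 0.23 in the sham libraries, 0.49 to 1.05 in those of SAH 1d and -0.14 to 0.19 in the SAH 7d libraries other than SAH 7d-5. For the G2/M members it was -0.39 to 0.02 in 5 sham libraries and 0.87 in sham-1, 0.32 to 1.01 in the SAH 1d group, and -0.35 to 0.62 in the same SAH 7d libraries. The G1/S levels of the SAH 1d group lay above those of all other libraries but SAH 7d-5, while the G2/M levels overlapped those of sham-1, SAH 7d-2 and SAH 7d-6. The G2/M level was below the G1/S level in all 6 SAH 1d libraries, by 0.02 to 0.73, and also in 5 sham libraries, by 0.04 to 0.34, and in 3 SAH 7d libraries, by 0.09 to 0.22. It was above the G1/S level in SAH 7d-5 (1.46), sham-1 (0.64), SAH 7d-2 (0.45) and SAH 7d-6 (0.43). These 4 libraries had the highest summed microglia markers and the highest summed mural cell markers of all 18 libraries. Microglia sums were 2599 CPM in SAH 7d-5, 500.0 CPM in sham-1, 1104 CPM in SAH 7d-2 and 848 CPM in SAH 7d-6, against at most 485 CPM in the others. In the same order, mural cell sums were 290.9, 210.2, 165.3 and 162.4 CPM, against at most 147.8 CPM in the others. The part of either cell type in the G2/M level was not tested.

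The members were also read by the letters of their promoter windows at 1 day. Of the 13 G1/S members with an E2F site 12 rose, with a median log2 fold change of 1.12, and Tyms was the exception. Of the 10 with a window but no E2F site 4 rose, with a median of 0.48. These were Chaf1b, Gins2, Mcm10 and Pcna. Licensing and helicase genes, all of which rose, were Cdt1, Gins1, Gmnn, Mcm2, Mcm3, Mcm5, Mcm6 and Mcm7 with a site. Without a site they were Gins2 and Mcm10, so the split by site overlaps the split by role. Among the G2/M members, 2 of 9 with a CHR element and 1 of 6 without it rose, near the 14.9% of all genes tested. Cdk1, the only G2/M member with an E2F site in its window, was 1 of the 2. The split is a count over few genes that share pathways and was given no test, and 5 tested G1/S and 4 tested G2/M members had no window, although Cdc6, Mcm4, Rrm2, Ccnd1, Ube2c and Ccna2 among them rose.

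At 7 days after SAH the G1/S levels of 5 libraries lay within the range of the sham group, and SAH 7d-5 carried high levels of most members. The top of the sham range was sham-1 at 0.23. Without sham-1 the sham libraries lay at -0.20 to 0.06, and SAH 7d-2 (0.16) and SAH 7d-6 (0.19) were above them. Compared with the sham group, no member passed in the SAH 7d group by edgeR, as for all genes (0.00%). An unadjusted p under 0.05 was found for 7 of 28 G1/S and 8 of 19 G2/M members, against 2842 of 18444 genes. The other tools run on these libraries also called no member. Of all 18444 genes, DESeq2 called 406 higher and 53 lower, and limma voom called 2 higher and 0 lower. Unadjusted counts of members were 3 and 5 by DESeq2, against 2864 of all genes. By limma voom they were 2 and 1, against 2968 of all genes. The median log2 fold change was 0.44 for G1/S and 1.27 for G2/M members with all libraries, and 0.09 and 0.19 without SAH 7d-5. Without that library edgeR again called no member (0.00% of all genes), with 2 and 1 at an unadjusted p under 0.05, against 2328 of 18444 genes. DESeq2 then called Aurka higher and no other member, against 2.33% of all genes. With SAH 7d-5 but without sham-1, edgeR called no member and 0 of 18444 genes. The medians were then 0.51 for G1/S and 1.59 for G2/M members. At an unadjusted p under 0.05 there were 10 and 13 members, against 3075 of all genes.

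The members with the lowest unadjusted p between SAH 7d and sham were Mcm2, Hells, Rrm2, Mcm5, Mcm10 and Chaf1b of the G1/S set and Aurka, Mki67, Cdk1, Birc5, Cdc20 and Bub1 of the G2/M set. With all libraries Rrm2 was at a log2 fold change of 2.06 (SE 0.83, adjusted p = 0.284) and Mki67 at 2.09 (SE 0.80, adjusted p = 0.273). Without SAH 7d-5 the same values were 0.35 (SE 0.40, adjusted p = 0.774) and 0.42 (SE 0.34, adjusted p = 0.665). The size of these differences thus rested on 1 library. Of these 12 members, only Mcm2 and Aurka kept an unadjusted p under 0.05 without it, at 0.44 (SE 0.18, adjusted p = 0.328) and 0.63 (SE 0.17, adjusted p = 0.155). Mcm2 had 4.93 to 7.33 CPM in these 5 SAH 7d libraries, and its range overlapped that of the sham group.

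SAH 7d-5 was the highest of all 18 libraries for 21 G1/S members and for all 19 tested G2/M members, against 25.1% of all genes. It was at least 2-fold above every other SAH 7d library for 18 and 18 of them, against 12.0% of all genes. Relative to the median of the other SAH 7d libraries, the G1/S members were at 0.767 to 17.7-fold (median 3.43) and the G2/M members at 2.96 to 21.9-fold (median 10.04). These folds describe 1 library, which has no replicate check.

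In SAH 7d-5 Mki67 had 45.4 CPM, and in the other SAH 7d libraries 1.88 to 4.63 CPM. Top2a had 37.0 CPM against 2.33 to 5.23 CPM, and Cdk1 had 16.0 CPM against 0.548 to 2.22 CPM. Each of these genes was also higher in SAH 7d-5 than in any SAH 1d library. Ccnb1, which did not pass at 1 day, had 15.5 CPM against 3.01 to 4.13 CPM, and Cenpf, a kinetochore protein, had 11.7 CPM against 0.290 to 1.5 CPM. The spindle checkpoint gene Bub1b reached the largest fold over the median of the others, 21.9, with 12.0 CPM against 0.516 to 1.21 CPM. Mitotic genes that did not pass at 1 day were thus high in this library together with those that did.

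Replication genes were less even in SAH 7d-5. Rrm2 had 12.9 CPM against 0.342 to 1.40 CPM in the other SAH 7d libraries, Mcm5 had 23.5 CPM against 1.10 to 2.97 CPM, and Mcm2 had 30.3 CPM against 4.93 to 7.33 CPM. All of these exceeded the highest SAH 1d library. Mcm4 had 34.4 CPM against 17.7 to 18.8 CPM, within the 31.3 to 46.1 CPM of the SAH 1d group, and Pcna had 109 CPM against 43.8 to 70.7 CPM. Gins2, Prim1, Ccne1 and Ccne2 were not raised in SAH 7d-5, with 0.767, 0.996, 0.776 and 1.01-fold of the median of the others. By role, the median fold was 6.10 for licensing and helicase, 2.96 for synthesis and nucleotide supply, 4.36 for chromatin and repair and 1.01 for the G1/S cyclins, and among the mitotic roles 15.3 for cyclins with Cdk1, 10.9 for kinases and checkpoint and 5.45 for spindle and kinetochore. G2/M members with a CHR element in the window had a median fold of 14.0 and those without it 5.01. The raised sums of macrophage, microglia, fibroblast and lymphocyte markers in this library are given above, and their part in these folds was not tested.

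**Figure D4:**
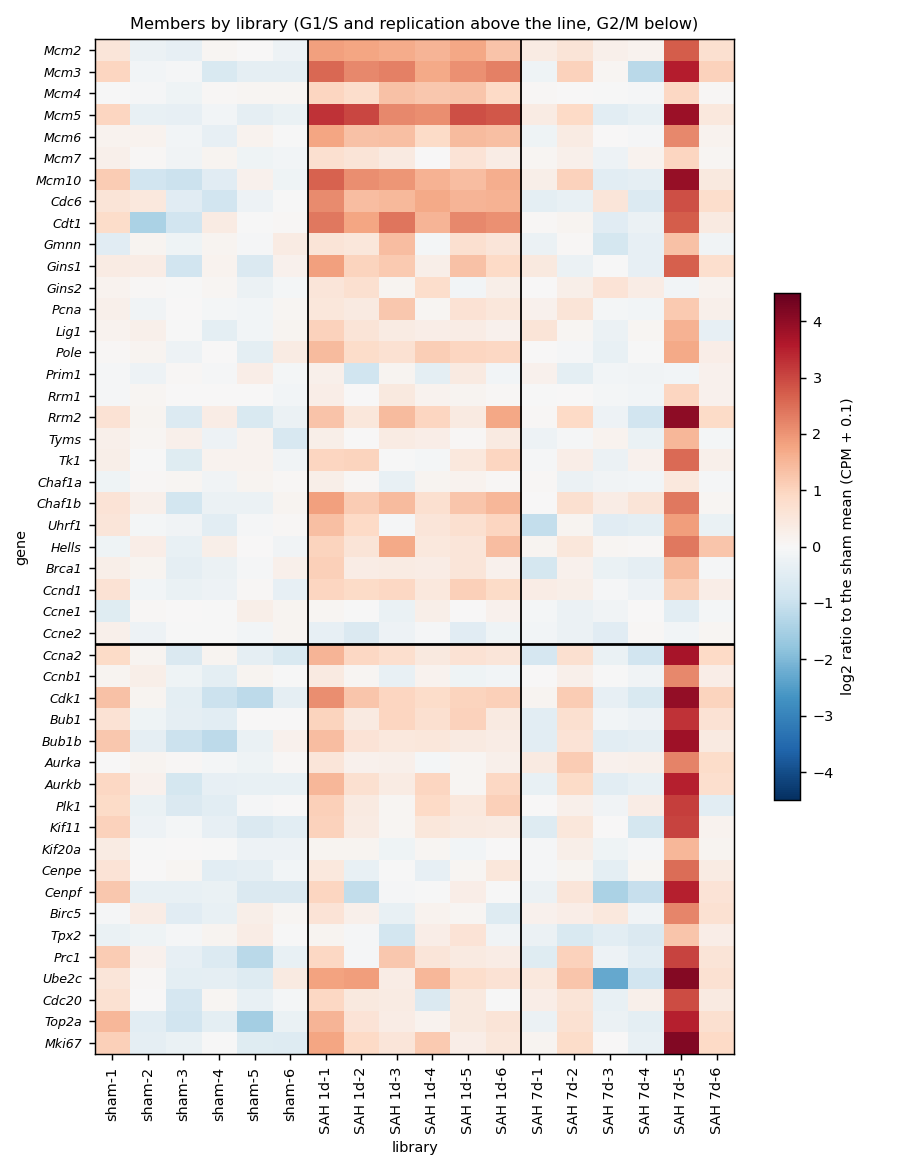
Log2 ratio of each tested member (rows) to its sham mean in each of the 18 libraries (columns), with 0.1 CPM added, in red where higher and in blue where lower. The SAH 1d libraries are red mainly in the upper block of G1/S members, and SAH 7d-5 is red in both blocks.

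Between day 1 and day 7 the number of replication genes that fell depended on SAH 7d-5. With all 12 libraries, 1 G1/S member fell, against 1.08% of all genes, and no G2/M member passed, against 0.282% of all genes that were higher. The member was Mcm4, with a log2 fold change between SAH 7d and SAH 1d of -0.88 (SE 0.18, adjusted p = 0.037), and its call was lost when any library but SAH 7d-5 was left out. The median was -0.21 for the G1/S members and 0.76 for the G2/M members, with all 19 G2/M members positive. By edgeR 2 G1/S and 1 G2/M members had an unadjusted p under 0.05, against 2713 of 18444 genes. DESeq2 also called Mcm4 only, against 3.50% of all genes that were lower. Limma voom with quality weights on the same 12 libraries gave another picture, with 14 G1/S members and 1 G2/M member, Plk1, lower, against 8.37% of all genes, and a G2/M median of -0.60.

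Without SAH 7d-5, 13 G1/S members fell and none rose, against 5.19% of all genes that fell and 3.18% that rose. No G2/M member passed by edgeR, with 4 at an unadjusted p under 0.05, against 4781 of 18444 genes. DESeq2 without this library called 16 G1/S members and 1 G2/M member, Plk1, lower, against 8.28% of all genes. The edgeR medians were -0.85 and -0.53, so that the G2/M median changed sign, with 4 of the 19 members still positive. Mcm5 fell by 2.55 on the log2 scale (SE 0.31, adjusted p = 0.00127), Cdt1 by 2.22 (SE 0.24, adjusted p = 0.000593), Mcm3 by 1.88 (SE 0.35, adjusted p = 0.0102), Mcm2 by 1.25 (SE 0.14, adjusted p = 0.000782) and Mcm4 by 1.09 (SE 0.11, adjusted p = 0.000369). The others were Mcm6, Mcm10, Cdc6, Gmnn, Pole, Chaf1b, Uhrf1 and Ccnd1, all of which had risen at 1 day. Every SAH 1d library was above the other 5 SAH 7d libraries for 11 G1/S members and for none of the G2/M members, against 5.43% of all genes. Both comparisons use the same SAH 1d libraries, so a high value in them moves both.

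**Figure D5:**
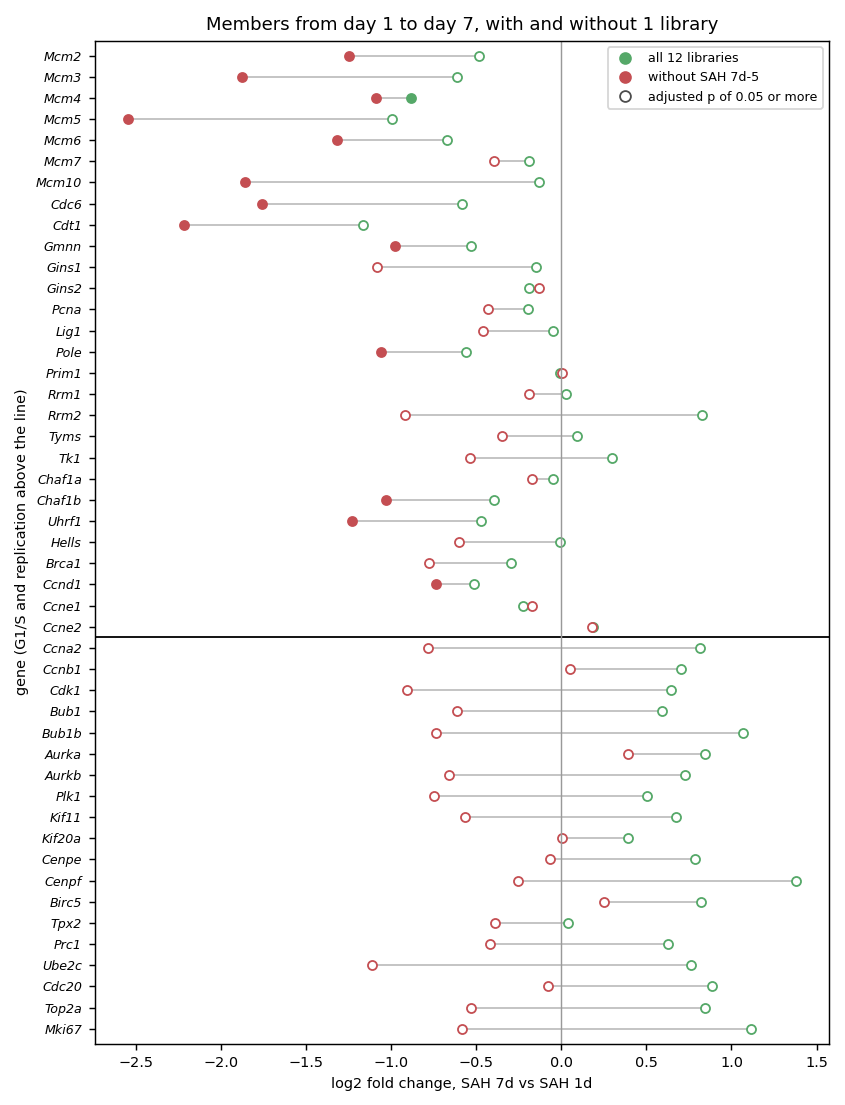
Log2 fold change of each member between the SAH 7d and the SAH 1d group (x axis) by gene (y axis), with all 12 libraries and without SAH 7d-5, and with filled points for an adjusted p under 0.05. With all libraries 1 point is filled, Mcm4, and without SAH 7d-5 13 points of the upper block lie to the left and are filled while those of the lower block are open.

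Aurka had the lowest unadjusted p among the G2/M members in both comparisons with the SAH 7d group. This mitotic kinase of the centrosome had 4.23 to 5.32 CPM in the sham group, 4.54 to 7.06 CPM in the SAH 1d group and 5.55 to 10.8 CPM in the SAH 7d libraries other than SAH 7d-5, which had 23.2 CPM. All 6 SAH 7d libraries lay above all sham libraries, by a small margin (5.55 against 5.32 CPM). The share of all genes with such a separation was not counted. With all libraries the log2 fold change over sham was 1.06 (SE 0.32, adjusted p = 0.22). Between SAH 7d and SAH 1d with all libraries, Aurka was at 0.84 (SE 0.33, adjusted p = 0.255), and Birc5, which encodes survivin of the chromosomal passenger complex, Ccnb1, Cenpf, Cdc20 and Cenpe, a kinetochore motor, followed at 0.71 to 1.38 with adjusted p = 0.383 to 0.496. Of the G1/S members, Ccnd1, Cdt1, Ccne1, Mcm6 and Pole followed Mcm4 at -1.17 to -0.22 with adjusted p = 0.247 to 0.485.

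The rest of the cell cycle pathway, taken from lists of genes that are not members, was read in the same way between the SAH 1d and the sham group, where 14.9% of all genes rose. Of 41 other replication factors 15 rose and none fell, with a median log2 fold change of 0.23. The 4 with the lowest adjusted p were Timeless, of the fork protection complex (1.18, adjusted p = 0.000601), Wdhd1, a replisome adaptor (0.91, adjusted p = 0.00216), Mcmbp, an MCM-binding protein (0.55, adjusted p = 0.00356), and Pold2, a polymerase subunit (0.40, adjusted p = 0.00584). Of 10 nucleotide supply genes that are not members 3 rose, among them Ung, which removes uracil from DNA, and Shmt1, of folate metabolism, with log2 fold changes of 0.94 and 0.83 and adjusted p = 0.00632 and 0.00980. Of 22 genes of the replication checkpoint and repair 4 rose, which were Mms22l (1.77, adjusted p = 0.000549), Chek2 (1.09, adjusted p = 0.00889), Atad2 (0.67, adjusted p = 0.0151) and Fanca (0.49, adjusted p = 0.0392). Of 59 other mitosis genes 11 rose and none fell, with a median of 0.40, led by Ccnf, a substrate adaptor of an SCF ubiquitin ligase (0.78, adjusted p = 0.0014), the kinesins Kif18a (2.29, adjusted p = 0.00158) and Kif22 (1.25, adjusted p = 0.00306), and Knstrn of the kinetochore (1.16, adjusted p = 0.0133). The counts for checkpoint and mitosis genes lay close to the share of all genes.

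Of 20 G1 regulators and members of the E2F and RB families 10 rose, led by Cdc25a, the phosphatase that activates CDK2 (0.75, adjusted p = 0.000653), Myc (2.31, adjusted p = 0.00143), Cdk6, a partner of the D-type cyclins (1.32, adjusted p = 0.00592), and E2f4, the E2F of repressor complexes (0.35, adjusted p = 0.00707). Of the 5 CDK inhibitors tested 1 rose. Cdkn1a, which encodes the p53 target p21, had 3.96 to 13.2 CPM in the sham group and 9.56 to 66.6 CPM in the SAH 1d group, so that the groups overlapped, with a log2 fold change of 1.71 (SE 0.45, adjusted p = 0.0158). Cdkn1b, Cdkn1c, Cdkn2b and Cdkn2c were at 0.04, 0.27, -0.74 and 0.43 with adjusted p = 0.752, 0.381, 0.267 and 0.0982, and Cdkn2a was at 0 in every sham and SAH 1d library and at 0.363 CPM in SAH 7d-5. Between SAH 7d and SAH 1d, 1 of the 41 other replication factors was lower with all libraries and 5 without SAH 7d-5, and for the other mitosis genes the counts were 0 and 4, against 1.08% and 5.19% of all genes. In the promoter windows of these lists an E2F site was in 16 of 37 windows of the other replication factors and a CHR element was in 37 of 54 of the other mitosis genes, and the G1 regulators had each of the 2 motifs in 4 of 13 windows.

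Some counts are uncertain for a reason in the annotation. In GRCr8, 10 of the 50 members overlap another protein-coding gene, and the libraries were not stated to keep strand, so counts of these members may hold reads of the other gene. Whether the exons overlap was not examined. Among the members that rose at 1 day these are Gins2 (with Gse1), Lig1 (with Zswim9), Rrm2 (with Cys1), Uhrf1 (with Arrdc5) and Hells (with Rpl35al10), and among the others Ccne2, Aurka, Plk1, Kif11 and Kif20a.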

How the data were processed

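RNA from the cortex of 18 rats was sequenced, 6 libraries each for sham, SAH 1d and SAH 7d, taken here as separate animals. Groups and library numbers come from the deposited sample descriptions, which equal the column names. The tissue is bilateral cortex per the labels and cortex of the operated side in the study's methods. The authors trimmed reads with fastp and aligned them with HISAT2. The study's methods name the rat build Rnor_6.0, whereas the submitters' processing notes name mm9, a mouse build, so no coordinates of the files are given. The deposited count table holds unnormalized whole-number counts for each gene, and the program the authors counted with is not given in the sources used here. FPKM values were deposited beside the counts by the authors, and per the labels the study used DESeq2 1.16.1.

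The counts were tested with edgeR 4.0.16 (quasi-likelihood test, TMM normalization, filterByExpr), on the 12 libraries of each comparison, with Benjamini-Hochberg adjustment over all 18444 genes. Calls are at an adjusted p under 0.05, where stated together with a log2 fold change of at least 1 or at most -1. The SE is the log2 fold change divided by the square root of the F statistic. CPM values use TMM factors over all 18 libraries, and 0.1 CPM was added before logs of single libraries. Alternatives used DESeq2 1.42.0, limma 3.58.1 (voom with quality weights, or log2(FPKM + 1) and log2(FPKM + 0.1) where the mean FPKM was 0.5 or more), other filters, all 18 libraries in 1 fit, a replicate block and each library left out. DESeq2 without SAH 7d-5 was added after seeing the data. Scripts were tested on simulated data.

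The members, the other gene lists and the motifs were chosen with earlier results of these data known, so no p-value over a list is given. Values are given for Mcm2, Mcm3, Mcm4, Mcm5, Mcm6, Mcm7, Pcna, Rrm2, Ccnd1, Mki67, Top2a, Cdk1 and Ccnb1 and, in each comparison, for the 6 G1/S and 6 G2/M members with the lowest p. Of each other pathway list up to 4 genes with the lowest adjusted p among those that passed are named, and all CDK inhibitors. A further gene that this rule names is not reported here. Promoter windows and overlapping genes come from RefSeq (GRCr8), in which all 50 members were found by symbol. The columns used were all those of the 18 libraries.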

Additional observations from a re-analysis of the deposited data

Results flagged for a closer look

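The level of each set and the CPM of the 13 genes named in every comparison were examined for a library that stands apart within its group, by the gap to its nearest neighbour divided by the range of the group (Dixon's ratio, 95% critical value for 6 libraries). Of 45 groups of 6 values, 7 in sham, 3 in SAH 1d and 14 in SAH 7d held such a library, where chance gives about 1 in 20. Genes of a set move together, so these are not independent.

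In the SAH 7d group the library was SAH 7d-5 each time, always the highest. The ratio was 0.817 for the G1/S level and 0.719 for the G2/M level, 0.905 for Mcm2, 0.854 for Mcm3, 0.934 for Mcm4, 0.916 for Mcm5, 0.884 for Mcm6, 0.708 for Mcm7, 0.916 for Rrm2, 0.678 for Ccnd1, 0.937 for Mki67, 0.916 for Top2a, 0.892 for Cdk1 and 0.91 for Ccnb1. Pcna was the gene of the 13 without such a ratio in this group. In the sham group the library was sham-1, also the highest, with 0.677 for the G2/M level, 0.756 for Mcm3, 0.864 for Mcm5, 0.663 for Ccnd1, 0.78 for Mki67, 0.809 for Top2a and 0.685 for Cdk1. In the SAH 1d group the library was SAH 1d-1, with 0.831 for the G2/M level, 0.761 for Top2a and 0.765 for Cdk1.

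Mcm4 is the member whose change relative to sham differed between the times by a test, since SAH 7d was lower than SAH 1d with a log2 fold change of -0.88 (SE 0.18, adjusted p = 0.037, edgeR), all 12 libraries included. All 6 SAH 1d libraries were above the 5 SAH 7d libraries other than SAH 7d-5, and SAH 7d-5 lay among them.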

How the results depend on the processing

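Precision rests on the spread between 6 libraries a group. Where a change is not explained by fewer libraries or genes, the cause was not tested.

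Between SAH 1d and sham, leaving out 1 library gave 17 to 20 higher G1/S members with medians of 0.78 to 1.01, 2 to 11 higher G2/M members with medians of 0.45 to 0.99, and 0 to 1 lower G1/S members. Fewest members passed with all 18 libraries in 1 fit (10 G1/S and 0 G2/M). Limma voom gave 11 and no filter on low counts 3 higher G2/M members. The 1 lower G1/S member was Ccne2, by DESeq2, by voom, without SAH 1d-3 and without SAH 1d-4. Leaving out SAH 7d-5 as well changes nothing here, since it is not in this comparison. On log2(FPKM + 1) the medians were 0.57 and 0.31, and 0.47 and 0.23 with no filter. Ccnb1 ranged from -0.075 to 0.087 when 1 library was left out, below 0 without sham-3, sham-4, SAH 1d-1 or SAH 1d-4.

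Between SAH 7d and sham, DESeq2 without SAH 7d-5 gave 1 higher G2/M member. Between SAH 7d and SAH 1d, lower G1/S members numbered 0 to 13 when 1 library was left out, 14 by voom, 14 without SAH 7d-5 and SAH 1d-3 and 16 by DESeq2 without SAH 7d-5, and the last 3 settings gave 1 lower G2/M member. By edgeR Mcm4 alone passed with all 12 libraries, and its call was lost when any library but SAH 7d-5 was left out. The G2/M median was -0.53 to 0.94 when 1 library was left out, -0.60 by voom, -0.053 on log2(FPKM + 0.1), -0.57 without SAH 7d-5 and SAH 1d-3 and -0.52 by DESeq2 without SAH 7d-5. Fold changes of single genes changed sign in the same settings. In the order voom, without SAH 7d-5, without both libraries and DESeq2 without SAH 7d-5, Rrm2 was -1.001, -0.92, -0.84 and -0.91, Cdk1 -1.12, -0.91, -0.96 and -0.90, Top2a -0.64, -0.53, -0.59 and -0.52, and Mki67 -0.63, -0.58, -0.65 and -0.57. The highest values with 1 library left out were 1.06 for Rrm2, 0.90 for Cdk1, 1.10 for Top2a and 1.36 for Mki67. On log2(FPKM + 1) Rrm2 was -0.023 with either filter and on log2(FPKM + 0.1) -0.31, Cdk1 was -0.12 and -0.40, and Ccnb1 was -0.0096 without both libraries.

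Replicate numbers did not pair the libraries, since the deviations of libraries with the same number correlated at -0.25 to 0.20 and most libraries did not correlate best with their own number. A replicate block gave 18 G1/S and 8 G2/M members higher at 1 day, and between SAH 7d and SAH 1d 0 lower members, a G2/M median of -0.094, and -0.52 for Rrm2, -0.50 for Cdk1, -0.052 for Top2a and -0.11 for Mki67.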
